A study of Mus musculus with 19 samples.

Results

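Pcdhb9 to Pcdhb15 are 7 neighbouring genes of the protocadherin beta cluster, and their expression was followed in mice that carry a mutation in Wiz, a zinc finger protein of the chromatin complex formed by the histone methyltransferases Ehmt1 and Ehmt2. The 7 genes were chosen by symbol from the 41388 gene identifiers counted in the RNA-seq data, of 22 beta protocadherin genes in all. All 7 were found, and all 7 passed the filter on low counts in every comparison. Counts were analysed for 16 of the 19 samples of the series, and the other 3, which belong to a Wiz ChIP-seq experiment, were not analysed here. The samples are whole brains of E13.5 embryos (13.5 days post coitum; 3 Wiz+/+ and 3 Wiz MommeD30/+ males, 2 Wiz+/+ and 2 Wiz MommeD30/+ females) and cerebellums of adult males (56 days post partum; 3 Wiz+/+ and 3 Wiz MommeD30/+). Each is described by the study as a biological replicate. All mice are of the FVB strain, and the MommeD30 allele, a null allele made with the mutagen ENU, was kept by crosses to Line3, which is homozygous for a multicopy GFP transgene on the FVB/NJ background. Animals of both genotypes therefore share that background. The allele is constitutive, so it is present in every cell and not only in the brain.

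Clustered protocadherins are cadherin-like proteins of the cell surface, arranged in alpha, beta and gamma clusters. In neurons each gene has its own promoter, single cells use few of the genes, and the protein isoforms on a cell bind the same isoforms on another cell, which gives neurons a molecular identity used in self-avoidance and synapse formation. Unlike the alpha and gamma genes, whose variable exons are spliced to shared constant exons, each beta gene is complete in itself, with the extracellular cadherin repeats, the membrane span and a short cytoplasmic tail encoded in 1 exon. Choice of promoter in the cluster is known to depend on CTCF and cohesin, on DNA methylation and on distant enhancers.

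The 7 genes lie on the plus strand of chromosome 18 within 75.5 kb (GRCm38, called mm10 by the study). In the GENCODE M21 annotation every one of them is a protein-coding gene of 1 exon block, and no exon of another counted gene overlaps them. Pcdhb9 (ENSMUSG00000051242) runs from position 37400855 to 37403909, Pcdhb10 (ENSMUSG00000045657) from 37411664 to 37414514 and Pcdhb11 (ENSMUSG00000051486) from 37421418 to 37425836. Pcdhb12 (ENSMUSG00000043458) follows from 37435621 to 37438654, and Pcdhb13 (ENSMUSG00000047307) from 37442500 to 37446209. Pcdhb14 (ENSMUSG00000044043) starts only 1446 bases further on and runs from 37447656 to 37456350. Pcdhb15 (ENSMUSG00000047033), from 37473540 to 37476340, is separated from it by 17189 bases, the widest gap among the 7. The coding sequences of the 7 genes are between 2358 and 2484 bases long. Over the 21 pairs of these genes the coding identity was 70.1% to 88.5%, with a median of 74.3%. Pcdhb11 and Pcdhb12 were the most similar pair. The closest beta gene to Pcdhb9 was none of the other 6 but Pcdhb7, at 89.7%.

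Between 16386029 and 50459755 reads were counted per sample, the fewest in the second Wiz+/+ male brain. Levels are given as CPM, a gene's count scaled to the total of the sample, and the counts behind a single value of a member ran from 51 to 481. Wiz itself checked the genotypes. It had 182 to 200.1 CPM in the Wiz+/+ male brains and 118 to 126 in the Wiz MommeD30/+ male brains, and the log2 fold change was -0.63 ± 0.04 (SE), with -0.57 ± 0.05 in female brain and -0.50 ± 0.03 in cerebellum. Neuronal markers (10 genes) summed to between 6909 and 7688 CPM over the brains, and the 7 granule cell markers to between 6052 and 6302 CPM in cerebellum, against 429 to 480 in the brains. The granule cell marker Gabra6 had no counts in the female brains.

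In Wiz+/+ animals all 7 genes were expressed in both tissues. Comparisons between genes need a level per length, and the length of Pcdhb14 differs between annotations, 8695 bases in GENCODE M21 and 3438 in RefSeq, so that both were used. In Wiz+/+ male brain, with GENCODE lengths, Pcdhb10 had the highest mean level (1.92 CPM per kb), followed by Pcdhb15 (1.75) and Pcdhb11 (1.65), and the ranges of these neighbours in the order overlapped. Pcdhb12 came next at 1.24 CPM per kb, below the lowest Pcdhb11 sample and above the highest Pcdhb13 sample. Pcdhb13 (0.943) and Pcdhb9 (0.910) overlapped, and Pcdhb14 was last at 0.503 CPM per kb. With the RefSeq lengths Pcdhb14 moved to the fourth place, at 1.27 CPM per kb, and Pcdhb11 to the first, at 2.02. In the 2 Wiz+/+ female brains the order by GENCODE length was Pcdhb10, Pcdhb11, Pcdhb15, Pcdhb12, Pcdhb13, Pcdhb9 and Pcdhb14, from 2.57 down to 0.727 CPM per kb.

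Cerebellum was more even. There the GENCODE order ran from Pcdhb11 (2.64 CPM per kb) through Pcdhb12 (2.29), Pcdhb15 (2.22), Pcdhb10 (2.17), Pcdhb13 (2.09) and Pcdhb9 (1.93) to Pcdhb14 (1.37), and only the last step separated neighbours whose samples did not overlap. With RefSeq lengths Pcdhb14 was the first of the 7 in cerebellum, at 3.47 CPM per kb, and it overlapped with Pcdhb11 at 3.23.

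**Figure D1:**
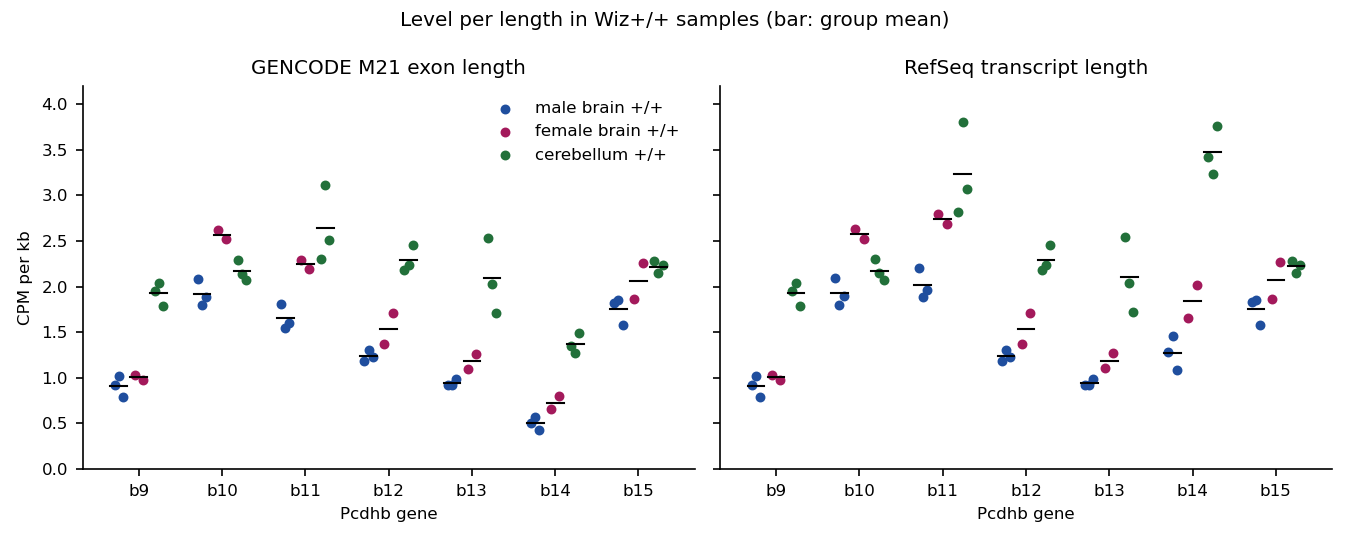
Level of each gene in CPM per kb (y axis) in Wiz+/+ samples, with the gene number on the x axis, points for single samples, bars for group means, and the GENCODE M21 exon length on the left and the RefSeq transcript length on the right. Pcdhb9 sat between 0.790 and 1.03 CPM per kb in the 5 brains and between 1.79 and 2.04 in cerebellum, and the places of Pcdhb14 and Pcdhb11, the genes whose 2 lengths differ most, depend on the length used.

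Levels in Wiz+/+ cerebellum were set against those in Wiz+/+ male E13.5 brain, a comparison in which tissue and age cannot be told apart. After TMM scaling all 7 genes were higher in cerebellum with no overlap between the samples, against 43.2% of the 16840 genes tested. In the CPM given here Pcdhb10 overlapped, at 5.95 CPM in the highest male brain and 5.90 CPM in the lowest cerebellum. A gene was called when its adjusted p was at most 0.05 and its fold change under 0.7 or over 1.3, the limits used by the study. By that rule 6 of the 7 rose, while 36.4% of all genes tested were called higher. Pcdhb14 differed most, from 4.40, 5.0 and 3.72 CPM in male brain to 11.8, 11.1 and 12.9 CPM in cerebellum, a log2 fold change of 1.69 ± 0.10 (SE; adjusted p = 4.98e-10). Pcdhb13 (1.36 ± 0.14), Pcdhb9 (1.32 ± 0.12) and Pcdhb12 (1.11 ± 0.10) followed. Pcdhb11 (0.86 ± 0.11) and Pcdhb15 (0.56 ± 0.10) changed less. Pcdhb10 had an adjusted p of 0.00364 but a fold change of 1.28, short of the limit. In bulk tissue, more or fewer cells of a type and more or less RNA per cell cannot be told apart. The median log2 fold change of the 7 was 1.11, and that of the 14 other beta genes tested was -0.06, with 2 called higher and 2 lower. Scaling by total counts alone moved the median of all genes from -0.02 to -0.23, and 5 of the 7 were then called, since Pcdhb15 then had a log2 fold change of 0.35.

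The question asked of the embryos was which genes respond to a reduced dose of Wiz early on. In male E13.5 brain 5 of the 7 genes fell by edgeR in Wiz MommeD30/+ embryos, namely Pcdhb10, Pcdhb12, Pcdhb13, Pcdhb14 and Pcdhb15, whereas 0.166% of the 16848 genes tested were called lower. Samples of the 2 genotypes did not overlap for these 5 genes and for Pcdhb11, and 5.99% of all genes tested were lower without overlap. DESeq2 called 6 of the 7 there, Pcdhb11 as well. In female E13.5 brain edgeR called Pcdhb14 alone of the 7, and 0.111% of 17152 genes lower. The female count depended on the method, since DESeq2 called 4 (Pcdhb10, Pcdhb11, Pcdhb14 and Pcdhb15) and an edgeR fit of all 16 samples called 6. There too Pcdhb10 to Pcdhb15 were lower without overlap, which with 2 samples a genotype held for 17.7% of all genes. Fitted over all 10 brains with sex as a covariate, 6 of the 7 genes fell, Pcdhb10 to Pcdhb15, against 0.254% of 17332 genes. Lower without overlap within each sex were the same 6, and 1.83% of all genes. Pcdhb9 was called in none of these comparisons, and its samples overlapped between genotypes in both sexes. With DESeq and the same limits, the study lists all of Pcdhb10 to Pcdhb15 as lower in each sex, and Pcdhb9 in neither.

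The calls within 1 sex rested on few samples. In male brain the count of 5 became 0 without the first Wiz+/+ brain, 1 without the second, 3 without the third, 3 without the first Wiz MommeD30/+ brain and 1 without the second. In female brain the count of 1 became 6 without the first Wiz+/+ brain, 4 without the second, and 0 without either Wiz MommeD30/+ brain. Over both sexes it was 6 whichever of the 10 brains was left out.

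**Figure D2:**
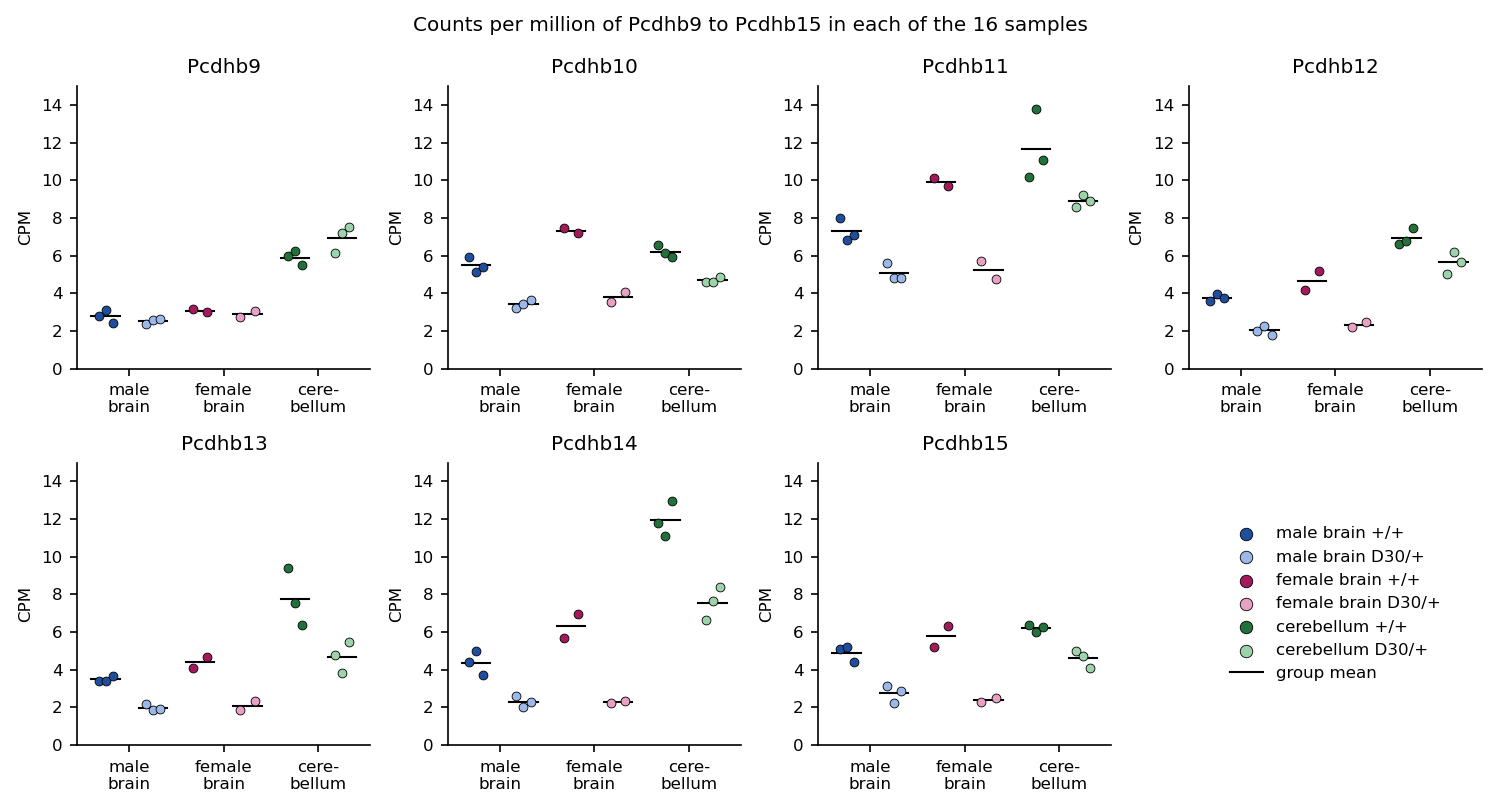
CPM of each gene (y axis) in every sample, grouped on the x axis by male brain, female brain and cerebellum, with dark points for Wiz+/+, light points for Wiz MommeD30/+ (D30/+) and bars for group means. For Pcdhb10 to Pcdhb15 the light points lie below the dark ones in each of the 3 sets, and for Pcdhb9 the genotypes overlap in each.

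Pcdhb14 showed the largest difference in brain by estimate. The male Wiz+/+ values given above compare with 2.58, 2.03 and 2.28 CPM in the male Wiz MommeD30/+ brains. In females it had 5.71 and 6.93 CPM in Wiz+/+ and 2.26 and 2.32 CPM in Wiz MommeD30/+ brains. The female mutants lay within the range of the male ones, and the Wiz+/+ females were above the Wiz+/+ males. The log2 fold change was -0.91 ± 0.14 (SE; adjusted p = 0.0179) in males and -1.46 ± 0.16 (adjusted p = 0.0343) in females. Over all brains it was -1.16 ± 0.13 (adjusted p = 0.000316), a fold change of 0.449.

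Pcdhb15, the last gene of the run and the one set apart by the widest gap, was lower in the mutants of both sexes as well. Male Wiz+/+ brains had 5.11, 5.19 and 4.42 CPM and male Wiz MommeD30/+ brains 3.15, 2.22 and 2.87 CPM. The female values were 5.22 and 6.34 CPM against 2.28 and 2.47 CPM. Every mutant lay below every Wiz+/+ sample of its sex. The log2 fold change was -0.84 ± 0.14 in males (adjusted p = 0.029), -1.28 ± 0.16 in females (adjusted p = 0.0569 by edgeR, just above the limit of 0.05, and 0.000467 by DESeq2) and -1.03 ± 0.12 over both (adjusted p = 0.000565).

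Pcdhb13 and Pcdhb12, which lie next to each other, showed nearly equal differences. Pcdhb13 had 3.41, 3.42 and 3.67 CPM in male Wiz+/+ brains and 2.16, 1.86 and 1.90 CPM in male Wiz MommeD30/+ brains. In females it had 4.08 and 4.68 CPM against 1.84 and 2.32 CPM. The genotypes were apart in both sexes, with a log2 fold change of -0.94 ± 0.10 over all brains (adjusted p = 0.000226), made up of -0.83 ± 0.12 in males and -1.07 ± 0.18 in females. Pcdhb12 had 3.61, 3.97 and 3.72 CPM in male Wiz+/+ brains and 2.01, 2.27 and 1.78 CPM in mutants. In females the values were 4.15 and 5.18 CPM against 2.19 and 2.47 CPM. For Pcdhb12 the log2 fold change was -0.88 ± 0.13 in males, -1.0 ± 0.17 in females and -0.93 ± 0.10 over both (adjusted p = 0.000226). In females alone edgeR called neither, with adjusted p = 0.267 for Pcdhb12 and 0.217 for Pcdhb13.

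Pcdhb10 and Pcdhb11 showed the smaller falls among the 6. Male Wiz+/+ brains had 5.95, 5.13 and 5.38 CPM of Pcdhb10 and male Wiz MommeD30/+ brains 3.20, 3.42 and 3.66 CPM. Female brains had 7.47 and 7.18 CPM against 3.53 and 4.04 CPM. No mutant reached a Wiz+/+ sample, and the log2 fold change was -0.71 ± 0.10 in males (adjusted p = 0.014), -0.95 ± 0.14 in females (adjusted p = 0.101) and -0.81 ± 0.08 over both (adjusted p = 0.000152). For Pcdhb11 the male values were 7.99, 6.84 and 7.10 CPM in Wiz+/+ and 5.61, 4.79 and 4.80 CPM in mutants. The female values were 10.1 and 9.70 CPM against 5.70 and 4.73 CPM. In each sex alone Pcdhb11 was not called by edgeR, with log2 fold changes of -0.55 ± 0.10 (adjusted p = 0.0638) and -0.93 ± 0.13 (adjusted p = 0.101). DESeq2 called it in both, with an adjusted p of 0.035 in males and 0.000778 in females. Over both it fell by 0.71 on the log2 scale (SE 0.09, adjusted p = 0.0017).

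Pcdhb9, the first gene of the run, was the one of the 7 not called in brain. Male Wiz+/+ brains had 2.81, 3.11 and 2.41 CPM and male Wiz MommeD30/+ brains 2.38, 2.59 and 2.63 CPM. Females had 3.16 and 3.0 CPM against 2.76 and 3.03 CPM. The genotypes overlapped in both sexes. The log2 fold change over all brains was -0.10 ± 0.09 (adjusted p = 0.676), with a 95% interval of -0.29 to 0.09. The intervals of the other 6 genes lay lower, the nearest of them, that of Pcdhb11, from -0.91 to -0.51. As a share of the counts of all 7 genes, Pcdhb9 made up 6.97% to 9.53% in the 5 Wiz+/+ brains and 11.3% to 14.2% in the 5 Wiz MommeD30/+ brains. That share also depends on the other 6 genes, whose sum had a mean of 33.0 CPM in Wiz+/+ and 17.7 CPM in mutant brains.

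Agreement between the 2 groups of embryos, which share no samples, was close in direction. All 7 estimates were below 0 in both sexes. Of all genes tested, 50% were below 0 in each sex taken alone, and the share below 0 in both was not counted. For Pcdhb9 the estimates, -0.12 ± 0.13 in males and -0.09 ± 0.15 in females, were smaller than their standard errors. For Pcdhb10 to Pcdhb15 the female estimate was the lower one in 6 of 6. Across the 7 genes Pearson's r between male and female log2 fold changes was 0.935 (Spearman's rho 0.893), and across the 6 genes without Pcdhb9 it was 0.668 (rho 0.829). These are descriptions across genes of 1 cluster that share libraries, and genes are not independent replicates. Whether the sexes differed in the size of the effect was tested by a genotype by sex term with edgeR. The study reports the male and the female brains in turn as separate RNA-seq sets. Sex therefore cannot be told apart from any other difference between the sets. No gene of the 7 was called, as was 0% of the 17620 genes tested. At an unadjusted p of at most 0.05 there were 2 of the 7 (Pcdhb11 and Pcdhb14) and 3.98% of all genes. DESeq2 called none of the 7 and 1 gene in all. The term was -0.55 ± 0.21 for Pcdhb14, with a 95% interval of -1.01 to -0.09, and -0.38 ± 0.16 for Pcdhb11, both with an adjusted p of 0.985. For the other 5 genes the term lay between -0.44 and 0.03. It was below 0 for 6 of the 7, for 13 of the 14 other beta genes tested and for 8902 of the 17620 genes tested.

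The embryo groups also differed in the Wiz+/+ level, a difference that was not tested. Summed over the 7 genes, male Wiz+/+ brains had 33.3, 32.6 and 30.4 CPM and female Wiz+/+ brains 39.9 and 43.0 CPM. Mutant brains had 21.1, 19.2 and 19.9 CPM in males and 20.6 and 21.4 CPM in females. The sums thus separated the male and the female set in Wiz+/+ and overlapped in Wiz MommeD30/+ brains. Over the same samples the other 15 beta genes summed to between 181 and 193 CPM in male Wiz+/+ brains and to 198 and 215 CPM in female ones.

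**Figure D3:**
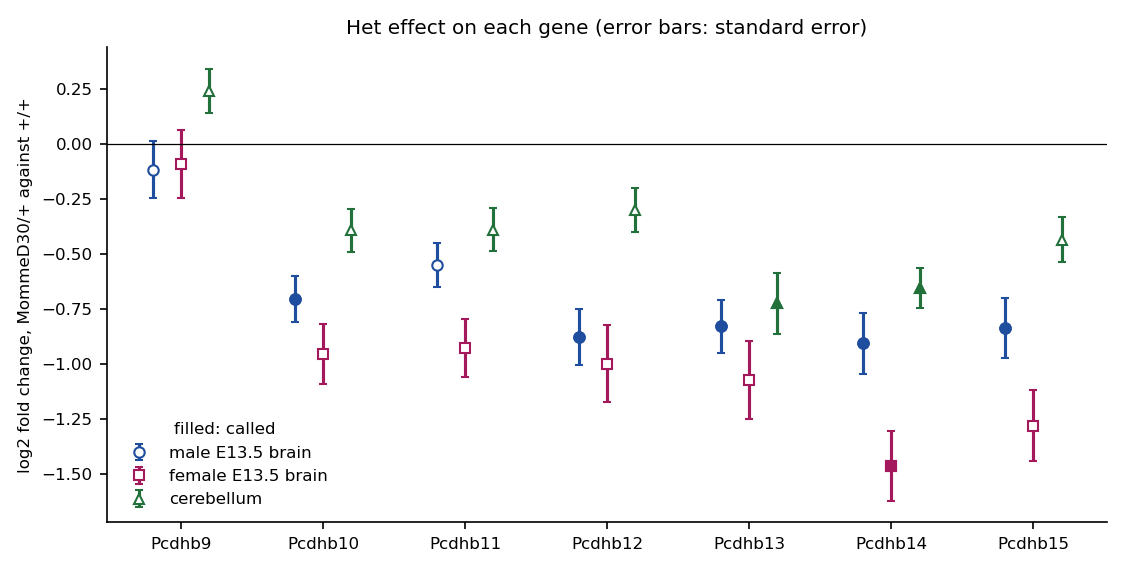
Log2 fold change of Wiz MommeD30/+ against Wiz+/+ samples (y axis) for each gene (x axis), with circles for male brain, squares for female brain, triangles for cerebellum, error bars of 1 standard error, and filled symbols for genes called. From Pcdhb10 to Pcdhb15 the female estimate is the lowest of the 3 and the cerebellum estimate the highest, and Pcdhb9 lies above its neighbours in each set.

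Adult cerebellum was used to see whether the same genes are affected in a mature tissue. Pcdhb13 and Pcdhb14 fell, 2 of the 7, whereas 0.3% of the 15979 genes tested were called lower. Pcdhb13 had 9.39, 7.53 and 6.36 CPM in Wiz+/+ and 4.76, 3.83 and 5.44 CPM in Wiz MommeD30/+ cerebellum, a log2 fold change of -0.72 ± 0.14 (adjusted p = 0.007). For Pcdhb14 the mutants had 6.63, 7.64 and 8.39 CPM, against the Wiz+/+ values above, a log2 fold change of -0.66 ± 0.09 (adjusted p = 0.000567). Both calls were kept whichever of the 6 cerebellums was left out.

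The other 4 of the genes lowered in brain were lower in cerebellum by a smaller amount. Pcdhb10 had 6.54, 6.11 and 5.90 CPM in Wiz+/+ and 4.62, 4.62 and 4.86 CPM in mutants, with a log2 fold change of -0.39 ± 0.10. Pcdhb11 had 10.2, 13.8 and 11.1 CPM against 8.60, 9.20 and 8.88 CPM, likewise -0.39 ± 0.10. Pcdhb15 had 6.38, 6.01 and 6.26 CPM against 4.97, 4.75 and 4.08 CPM, or -0.44 ± 0.10. These 3 had an adjusted p of 0.0247, 0.0298 and 0.0189, but their fold changes of 0.761, 0.763 and 0.740 were above the limit of 0.7. By the adjusted p alone 5 of the 7 were lower, and 2.56% of all genes tested. Pcdhb12, at 6.61, 6.79 and 7.47 CPM against 5.04, 6.21 and 5.64 CPM, did not pass (-0.30 ± 0.10, adjusted p = 0.0878). For all of Pcdhb10 to Pcdhb15 the genotypes did not overlap in cerebellum, which held for 12.4% of all genes tested in that direction.

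Pcdhb9 again stood apart, and here its estimate was above 0. It had 5.95, 6.25 and 5.48 CPM in Wiz+/+ and 6.13, 7.19 and 7.52 CPM in Wiz MommeD30/+ cerebellum, so that the lowest mutant lay within the Wiz+/+ range. The log2 fold change was 0.24 ± 0.10 (adjusted p = 0.178), with a 95% interval of 0.03 to 0.45. Its share of the counts of the 7 genes was 9.87% to 10.9% in Wiz+/+ and 15.1% to 16.8% in mutants. That share also depends on Pcdhb10 to Pcdhb15, whose sum had a mean of 50.7 CPM in Wiz+/+ and 36.1 CPM in mutants. Summed over the 7 genes, cerebellum had 56.8, 57.6 and 55.5 CPM in Wiz+/+ and 40.8, 43.4 and 44.8 CPM in mutants.

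Summed markers of some cell types moved with genotype in these sets, though not every gene of a list did. The 7 blood markers summed to between 145 and 228 CPM in Wiz+/+ and between 266 and 481 CPM in Wiz MommeD30/+ cerebellum. Of the 5 tested there edgeR called 4 higher (Alas2, Hba-a1, Hba-a2 and Hbb-bs), and DESeq2 called 1. The embryonic globin Hbb-y had no counts in cerebellum. The summed astrocyte and Bergmann glia markers were also higher without overlap, from 2542 to 2608 CPM against 2618 to 2647 CPM. Of these 6 genes 2 had estimates below 0, with a log2 fold change of -0.19 ± 0.04 for Gfap. The sums of the other lists overlapped in cerebellum. Estimates there were below 0 for 5 of 6 oligodendrocyte, 7 of 8 neural progenitor and 6 of 10 neuronal markers, none of them called. Tubb3 (-0.27 ± 0.05), Nefl (-0.23 ± 0.05), Nes (-0.38 ± 0.08) and Sox10 (-0.27 ± 0.06) had an adjusted p by edgeR of 0.0032, 0.0088, 0.0102 and 0.0174. In male brain the summed markers of 2 of the 11 lists were higher in mutants without overlap. They were those of Purkinje cells (53.0 to 55.6 against 61.3 to 64.1 CPM) and of granule cells (432 to 455 against 458 to 472 CPM). Estimates were below 0 for 1 of the 4 Purkinje cell markers tested (Pvalb, -0.36 ± 0.26) and for 4 of the 6 granule cell markers tested. In female brain the summed neural progenitor markers were higher (1951 to 2186 against 2255 to 2355 CPM), with 7 of 8 estimates above 0. In the same brains 4 sums were lower without overlap, those of blood (1274 to 1330 against 1181 to 1216 CPM), astrocytes and Bergmann glia (212 to 233 against 193 to 199), endothelial cells (244.4 to 251 against 226 to 244.3) and microglia (60.9 to 61.8 against 53.4 to 56.1). EdgeR called none of the tested markers of these lists in either sex, and DESeq2 called 1 Purkinje cell marker in males. The summed neuronal markers overlapped between genotypes in all 3 sets. By estimate 10 of the 10 neuronal markers were below 0 in female brain (median log2 fold change -0.10) and 8 of 10 over all brains (median -0.06), none of them called. With the blood sum as a covariate the same number of the 7 genes, 6, was called over all brains, and Pcdhb14 had a log2 fold change of -1.18. For the other lists, and for blood in cerebellum, their part in the results was not tested.

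The size of the mutant effect in the 2 tissues was compared directly, in males only, by a genotype by tissue term. The term was above 0 for all 7 genes, that is, the fall was smaller or the level higher in cerebellum, and it was above 0 for 49.4% of the 17337 genes tested. None of the 7 was called by edgeR, against 0.26% of all genes, and none by DESeq2. Unadjusted p was at most 0.05 for 4 of the 7 (Pcdhb9, Pcdhb10, Pcdhb12 and Pcdhb15) and for 9.72% of all genes. The largest term was that of Pcdhb12, 0.57 ± 0.16 (95% interval 0.24 to 0.91, adjusted p = 0.175), and the smallest that of Pcdhb13, 0.10 ± 0.22 (-0.35 to 0.56). A difference between tissues was therefore not established for any single gene of the run. Tissue and age cannot be told apart in it.

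The rest of the beta cluster gives the setting of these values. Of the 14 other beta genes tested, 11 fell over all brains. Their median log2 fold change was -0.73, against -0.93 for the 7 genes. Pcdhb7, the gene most similar to Pcdhb9, was among the 3 that did not pass, with a log2 fold change of -0.14 ± 0.05 (adjusted p = 0.276). In cerebellum 3 of the 14 fell, Pcdhb2, Pcdhb3 and Pcdhb8, and the median was -0.09, against -0.39 for the 7. Downstream of the run, Pcdhb16 to Pcdhb20 and Pcdhb22 were called in the genotype by tissue test, with terms from 0.77 for Pcdhb22 to 1.07 for Pcdhb19. Pcdhb18, for example, had a log2 fold change of -0.94 ± 0.09 in male brain and of 0.11 ± 0.07 in cerebellum. Together the 7 genes held 13.9% to 16.8% of all beta protocadherin counts in Wiz+/+ brains and 27.8% to 28.4% in Wiz+/+ cerebellum, where the share in mutants was 22.8% to 25.0%.

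**Figure D4:**
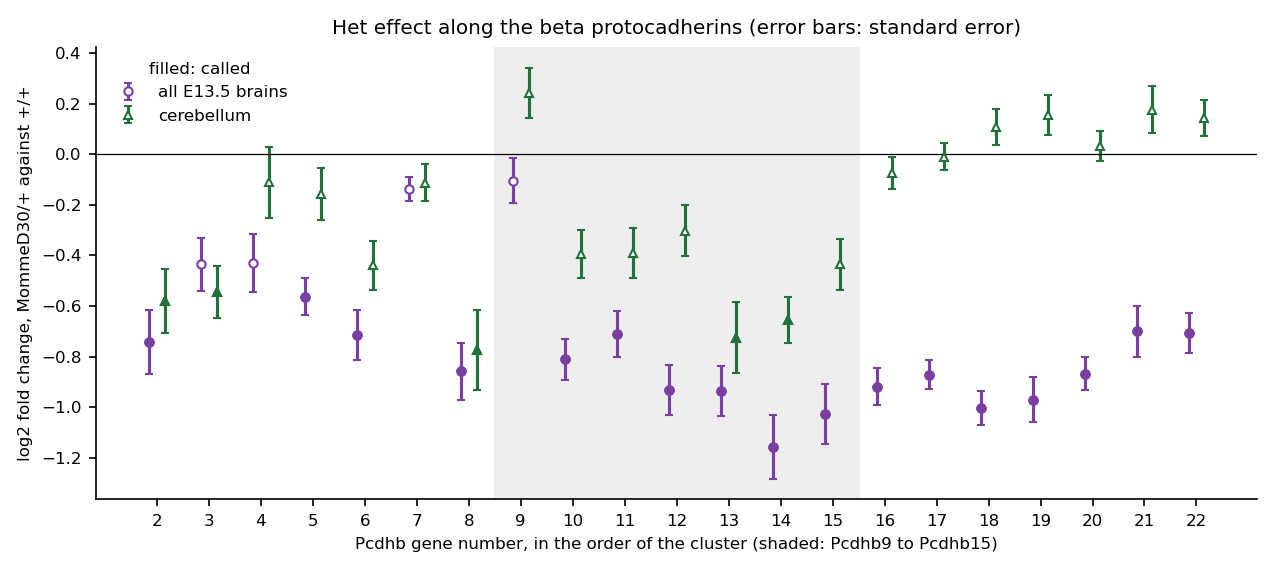
Log2 fold change of Wiz MommeD30/+ against Wiz+/+ samples (y axis) for Pcdhb2 to Pcdhb22 in the order of the cluster (x axis), with circles for all E13.5 brains, triangles for cerebellum, error bars of 1 standard error, filled symbols for genes called, and shading over Pcdhb9 to Pcdhb15. Pcdhb10 to Pcdhb15 are below 0 in both tissues, while of Pcdhb16 to Pcdhb22 none was called in cerebellum.

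Reads from such similar genes can be ambiguous, which bears on how far the 7 can be told apart. Of all stretches of 100 bases, the read length, in the exon of Pcdhb9, 12.1% matched another place in GRCm38 with at most 2 mismatches, mostly Pcdhb7 (272 of 358). The share was 13.0% for Pcdhb12 and 8.40% for Pcdhb11, and 317 stretches were common to that pair. It was 3.31% for Pcdhb10 and under 1% for the last 3 genes, at 0.332% for Pcdhb13, 0.838% for Pcdhb14 and 0.925% for Pcdhb15. Over all brains Pcdhb10 to Pcdhb15, with shares from 0.332% to 13.0%, were called lower, and Pcdhb9, at 12.1%, was not. The main partners differ, since Pcdhb11 and Pcdhb12 were both called lower and Pcdhb7 was not. Pcdhb7 had means of 22.6 CPM in Wiz+/+ and 21.7 CPM in mutant male brains, and 24.1 and 20.3 CPM in female ones. The means of Pcdhb9 were 2.78 and 2.53 CPM in males and 3.08 and 2.90 CPM in females. How the authors' counting treated ambiguous reads is not given in the sources used here, and the part of shared reads in the values of Pcdhb9, Pcdhb11 and Pcdhb12 was not tested. The reads came from FVB mice and were mapped to the C57BL/6J reference.

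Genes known to act on the cluster, or with its proteins, were not called alongside the 7. Of 24 regulators, among them Ctcf, the cohesin subunits Rad21, Smc1a and Smc3, the chromatin protein Smchd1, and Ehmt1 and Ehmt2, edgeR called none in any of the 4 mutant comparisons (males, females, cerebellum, all brains), with 3, 2, 8 and 4 at an unadjusted p of at most 0.05, and DESeq2 called none. The shares of all genes tested at that p were 8.45%, 6.4%, 19.9% and 12%. The median log2 fold changes of the 24 in the 4 comparisons were 0.02, 0.07, 0.05 and 0.04. In cerebellum 4 of the 24 had estimates below 0 and the others above. Among those above 0, Zfp462, Zfp644, Smc3 and Dnmt3a had an adjusted p by edgeR of 0.005, 0.0189, 0.0202 and 0.0412. With log2 fold changes of 0.20, 0.15, 0.14 and 0.11 these genes stayed inside the fold limits. Of 17 partners in protocadherin signalling, such as the kinases Ptk2 and Fyn and the actin regulators of the WAVE complex, none was called by either tool, with 0, 0, 1 and 3 at an unadjusted p of at most 0.05. Of the 22 genes tested that flank the clusters on chromosome 18, none was called by either tool in the same comparisons, with 0, 3, 5 and 2 at that p. They include Taf7, a subunit of the general transcription factor TFIID, and the mitochondrial carrier Slc25a2, which lie between the beta and gamma clusters. The log2 fold change over all brains was -0.04 ± 0.04 for Taf7, and -0.03 ± 0.22 for Slc25a2. The alpha and the gamma cluster are each counted under 1 identifier, and neither was called, at -0.32 and -0.02 over all brains. The alpha identifier had an adjusted p of 0.0489 there and a fold change inside the limits.

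Finally, the genes whose pattern over the 16 samples was most like the mean of the 7 were looked for among 15292 genes. Likeness was the root mean square difference of log2 CPM, each sample being set against the Wiz+/+ mean of its set. Outside the clustered protocadherins the 5 nearest were Gm10557 (0.076), 6820431F20Rik (0.117), Gm6483 (0.122), Gm21092 (0.133) and 2610005L07Rik (0.134), against a median of 0.497 over all genes. The study places all 5 in the same gene cluster, most of whose members are annotated as cadherin pseudogenes. It considers it very likely that reduced Wiz affects several genes of that cluster, and adds that mapping errors may account for some of the changes seen there. Gm10557, a predicted gene, had log2 fold changes of -0.71 and -0.81 in the male and female brains and of -0.39 in cerebellum. Among the 7 themselves the difference from their own mean ran from 0.080 for Pcdhb10 to 0.484 for Pcdhb9.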

How the data were processed

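Whole E13.5 brains and adult male cerebellums were analysed by RNA-seq of polyA RNA, with TruSeq libraries and single-end reads. The authors mapped the reads to mm10 with TopHat2 2.0.11, counted them over exons with HTSeq 0.6.1 and deposited the raw counts, not normalized, for each Ensembl gene. The mode and strand setting of the counting are not given in the sources used here. Groups were taken from the labels.

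The counts were compared with edgeR 4.0.16 in R 4.3.3 (TMM, filterByExpr with a minimum count of 10, the quasi-likelihood test, Benjamini-Hochberg adjustment over all genes kept). The F statistic gave the standard error of each log2 fold change, and its degrees of freedom the 95% interval. Calls needed an adjusted p no higher than 0.05 together with a fold change outside 0.7 to 1.3, the study's limits; interaction terms were called by the adjusted p alone. The study used DESeq, which was not installed, and DESeq2 1.42.0 was run as an alternative. CPM are counts over the total count of the sample, and 40340 of 41388 identifiers were matched to GENCODE M21. For the genes tested, overlap between groups of samples was judged on CPM scaled by TMM. Total counts of 16386029 to 50459755 set the precision, and the scripts were tested on simulated counts with 200 changed genes. P-values measure the spread between these samples. Alternatives were other size factors, DESeq2, no filter, adjusted p alone, all 16 samples in one fit, a replicate block and leaving out each replicate. Scaling by total counts alone, RefSeq lengths and the blood covariate were chosen after seeing the data. Figures and sums were made with Python 3.11.15.

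The 7 genes, the lists (regulators, signalling partners, flanking genes, cell markers) and the tests were chosen with earlier results of these data known. Named with values are the 7 genes, Wiz, Taf7, Slc25a2, called genes of the lists and the 5 genes most like the 7 outside the clustered protocadherins. Pcdhb5 and Pcdhb7 were added after their values were seen, as were the regulators Zfp462, Zfp644, Smc3 and Dnmt3a. So were the markers Pvalb, Tubb3, Nefl, Nes and Sox10.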

Additional observations from a re-analysis of the deposited data

How the results depend on the processing

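Each result was recomputed under the alternatives. The 306 values of Pcdhb10 to Pcdhb15 in the 4 mutant comparisons were below 0 in 306 cases, and Pcdhb9 was called in 0 of 51. The count of genes called was within 1.5 times the reported one in 6 of 12 alternatives in male brain, 3 of 10 in female brain, 11 of 12 in cerebellum and 17 of 17 over all brains. The interactions called 0 of the 7 throughout. Leaving out 1 sample gave between 0 and 5 genes called in male brain and between 0 and 6 in female brain. In female brain DESeq2 called 4 and a fit of all 16 samples 6, and in cerebellum the adjusted p alone gave 5 in place of 2. The cause of these changes was not tested, except that fits of 1 sex without a sample rest on fewer samples, a lone sample being assumed to vary like the others. Same-numbered samples of the 2 genotypes did not deviate together (correlations of -0.16 to -0.022), and the numbers were not taken as pairs. This check is weak. Each genotype was centred on its own mean, which ties the correlations of a set together, and in females all are 0.0646 in size by construction. With the replicate block 1 gene was called in males, 0 in females, 2 in cerebellum and 6 over all brains.

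Interaction terms near 0 changed sign without 1 sample, and none of these was called. For Pcdhb9 the genotype by sex term became -0.03 without the second male Wiz+/+, -0.01 without the first male Wiz MommeD30/+, -0.0051 without the second female Wiz+/+ and -0.042 without the second female Wiz MommeD30/+ brain, in a range of -0.042 to 0.127. For Pcdhb12 it became 0.053 without the second female Wiz+/+ brain, in a range of -0.263 to 0.053. For Pcdhb13 the genotype by tissue term became -0.026 without the third Wiz+/+ and -0.029 without the third Wiz MommeD30/+ cerebellum, in a range of -0.029 to 0.264.

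The female comparison has 2 brains a genotype, and the smallest male library holds 51 to 112 counts per gene.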
